A study of Mus musculus with 82 samples.

Results

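Scg2 (secretogranin II), Vgf (neurosecretory protein VGF) and Scg5 (secretogranin V, also called 7B2) belong to the granin system of secretory proteins and were followed in mouse aortic vascular smooth muscle cells (aVSMC). They were taken by gene name from the deposited count tables and are 3 of 55401 listed genes. They were chosen with their values against control in these same cultures known, so those values are given as a description without a test. The cells were primary aVSMC of C57BL/6 mice, propagated in a medium that itself contained EGF, and all groups, controls included, were then synchronized for 24 h without serum and supplements. The stimuli were EGF (10 µg/L, ligand of the EGF receptor), AngII (10 nM, angiotensin II) and U46619 (1 µM), a stable thromboxane analog that activates the thromboxane receptor TP. After 24 h there were 7 groups of n = 6 cultures, 1 from each of 6 mice: untreated control, each stimulus alone, EGF with AngII, EGF with U46619, and all 3 together. After 48 h there were 2 batches with 5 cultures per group. One batch had controls, EGF and U46619 alone and their combination (EGF/U46619 batch), and the other had AngII in place of U46619 (EGF/AngII batch). Cultures that share a replicate number in a batch are called a culture set. At 48 h the labels name 5 mice for 10 sets, although according to the methods no mouse was used for more than 1 replicate, so sets may share an animal.

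Granins are acidic proteins of the regulated secretory pathway, in which cargo is sorted into dense-core vesicles, stored, and released when calcium or cAMP rises. Scg2 and Vgf are precursors, and proprotein convertases cut them at pairs of basic residues into peptides such as secretoneurin (from Scg2) and TLQP peptides (from Vgf). Scg5 is a small chaperone that binds the prohormone convertase encoded by Pcsk2 and helps it to mature. The system is best known from neurons and endocrine cells, and secretoneurin has been studied in blood vessels as an angiogenic peptide.

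On GRCm38 (the build that mm10 names, GENCODE annotation), Scg2 (ENSMUSG00000050711) lies at chr1:79434669-79440120 on the minus strand, with 2515 exonic bases. Vgf (ENSMUSG00000037428) lies at chr5:137026392-137033351 on the plus strand, with 2973 exonic bases. Scg5 (ENSMUSG00000023236) lies at chr2:113776362-113829121 on the minus strand, with 1569 exonic bases. All 3 are protein-coding, and the counts cover their exons. Promoter windows from 250 bases before to 50 bases after the RefSeq start (GRCm38.p6) were searched on both strands for the cAMP response element, CRE, since granin genes are textbook targets of CREB. The full palindrome TGACGTCA was found once in the Scg2 window, 68 bases before the start, and in 1.79% of 32851 windows. It was not found in the Scg5 window, which holds 3 copies of the half-site TGACG, a motif found in 20.8% of windows and contained in the palindrome. The AP-1 motif TGANTCA was in neither window and in 7.81% of all. The GENCODE model of Scg2 begins 94 bases upstream of the RefSeq start, so the match lies inside it. The 30 bases around the match, chr1:79440076-79440105 of GRCm38.p6 on the minus strand, are shown with the palindrome in capitals, because regulators that bind it are among the genes described further on.
Scg2: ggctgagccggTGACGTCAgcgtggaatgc
A match is a description of letters and not a measured site, and no window of Vgf was searched.

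Library totals were 16483529 to 20818809 counts after 24 h and 19936925 to 33916114 after 48 h, and levels are given as FPM, counts per M (mega) of the TMM-scaled library size. The smooth muscle marker Acta2 was at 352 to 15164 FPM and Myh11 at 0.149 to 276 FPM after 24 h, whereas Tagln and Cnn1 are listed at 0 in each library, and so are the 7075 genes on chromosomes 9, X, Y and MT. The library labelled control of set B2-4 stood apart. Its deviations from the group mean correlated with those of the other cultures of its set at r = -0.32 to -0.31 and with AngII of set B2-2 at r = 0.92. The control of set B2-2 stood apart less clearly, with r of at most 0.60 within its set and 0.61 with EGF+AngII of set B2-1. Ratios, control ranges and nearest genes at 48 h are given with and without set B2-4, and ratios of Scg2 also without both sets. In bulk RNA, fewer cells of a type and less RNA per cell cannot be told apart.

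Among the 24 h controls, Scg2 had the widest range between mice of all genes tested. The 6 controls after 24 h had 1775 FPM (mouse 1), 42.1 FPM (mouse 5), 41.2 FPM (mouse 2), 8.93 FPM (mouse 3), 2.14 FPM (mouse 4) and 0.422 FPM (mouse 6), that is 29644 counts in mouse 1 and 9 counts in mouse 6. On the scale of log2(FPM + 0.5) the range was 10.9, and 0 of the 14528 genes tested at both time points had a larger one, with a median range of 1.20. Vgf ranged over 2.05, from 0.0599 FPM in mouse 1 to 1.83 FPM in mouse 5, which 2883 genes exceeded. After 48 h, the 10 controls ranged over 5.71 for Scg2, exceeded by 100 genes, and over 3.14 for Vgf, exceeded by 1055. Without control B2-4 the range of Scg2 was 4.601, exceeded by 272 genes, and that of Vgf was again 3.14, exceeded by 960. The summed endothelial markers (5 of 6 with counts, Cdh5 at 0) ran from 4.85 FPM in mouse 1 to 1760 FPM in mouse 6, the mice with the highest and lowest Scg2. Summed fibroblast markers ran the other way, from 616 FPM in mouse 1 to 180 FPM in mouse 6, and macrophage markers from 114 to 20.9 FPM. Summed Schwann cell and smooth muscle markers were at 19.6 and 3684 FPM in mouse 1 and at 5.39 and 2759 FPM in mouse 6. The summed neuron and chromaffin markers (8 of 10 with counts, Tubb3 and Syp at 0) were at 2.75 FPM in mouse 1 and 12.5 FPM in mouse 6, with Th and Dbh at no more than 0.328 FPM in any 24 h library. The part of other cell types in the spread of Scg2 was not tested.

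Wherever EGF or U46619 was present for 24 h, each culture held less Scg2 than the control from its own mouse, with 1 exception (EGF, mouse 6). With EGF, levels ran from 0.443 to 302 FPM with a median of 4.28, against a control median of 25.1 FPM. With U46619 they ran from 0 to 478 FPM with a median of 2.07, and with EGF+U46619 from 0.103 to 188.2 FPM with a median of 2.42. The groups overlap widely because the mice differ by more than the incubations, so each culture was set against its own control. In mouse 1 the control had 1775 FPM, the EGF culture 302, the U46619 culture 478 and the EGF+U46619 culture 188.2 FPM. In mouse 2 it went from 41.2 to 6.72, 2.81 and 3.73 FPM in the same order, and in mouse 5 from 42.1 to 10.8, 5.07 and 6.68 FPM. Mouse 3 went from 8.93 FPM to 1.84, 1.34 and 0.506, and mouse 4 from 2.14 to 1.38, 0.950 and 1.11 FPM. In mouse 6 the control had 9 counts, the EGF culture 10, the U46619 culture 0 and the EGF+U46619 culture 2, so its ratios rest on few counts.

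The mean log2 ratio to the own control, from log2(FPM + 0.5), was -1.58 ± 1.09 (SD, n = 6) for EGF, a 2.99-fold lower level, with 5 of 6 cultures lower. It was -2.10 ± 1.12 for U46619 (4.28-fold lower, 6 of 6 cultures) and -2.28 ± 1.28 for EGF+U46619 (4.85-fold lower, 6 of 6). AngII alone left Scg2 at 0.08 ± 0.27 on this scale, with 4 of 6 cultures above their control, and levels in mouse 1 of 2196 FPM. Adding AngII gave -1.44 ± 0.87 with EGF+AngII and -2.17 ± 1.29 with all 3 stimuli, each lower in 6 of 6 cultures. The spread of these ratios is carried by mice 4 and 6, whose ratios for U46619 were -0.86 and -0.88, whereas the other 4 mice lay between -3.66 and -1.89. Their controls had the lowest levels, 2.14 and 0.422 FPM, where the added 0.5 FPM limits how far a ratio can fall. In mouse 6 the U46619 culture had 0 counts, so -0.88 is the lowest ratio this scale allows there. The smaller ratio in mouse 6 is thus not evidence of a weaker response. In mouse 4 the U46619 culture still had 19 counts (0.950 FPM) against 45 in its control, so its ratio was not at that limit.

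Vgf had the opposite pattern, with higher levels wherever U46619 was present. Control cultures after 24 h held 0.0599 to 1.83 FPM with a median of 1.21, from 1 to 40 counts. With U46619 the 6 cultures held 5.05, 12.1, 17.0, 18.3, 22.3 and 24.95 FPM, with EGF+U46619 5.16 to 34.3 FPM with a median of 15.6, and with all 3 stimuli 4.65 to 33.2 FPM with a median of 19.5. Every culture with U46619 was above every culture without it, since the latter had at most 3.66 FPM (AngII, mouse 6). Across all genes, 27.8% of the 14528 tested were differentially expressed genes (DEG, defined with the tests further on) with U46619 against control (13.7% higher, 14.2% lower). The shares were 33.4% with EGF+U46619 (17.1% higher, 16.3% lower), 34.6% with all 3 stimuli (18.2% and 16.3%), 3.13% with EGF+AngII (1.54% and 1.59%) and 0.0275% with EGF (0.0138% each way). Nothing is read from the members' separation, since they were chosen on it. The mean log2 ratio to the own control was 3.49 ± 0.67 (SD, n = 6) for U46619, an 11.2-fold level, 3.52 ± 0.60 for EGF+U46619 and 3.65 ± 0.81 for all 3. For EGF alone it was 0.44 ± 0.47, with 5 of 6 cultures above control, for AngII 0.25 ± 0.65 (4 of 6) and for EGF+AngII 0.30 ± 0.28 (5 of 6). Mouse 1, with the highest Scg2, had the lowest Vgf in the control and with U46619, where it held 87 counts.

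**Figure D1:**
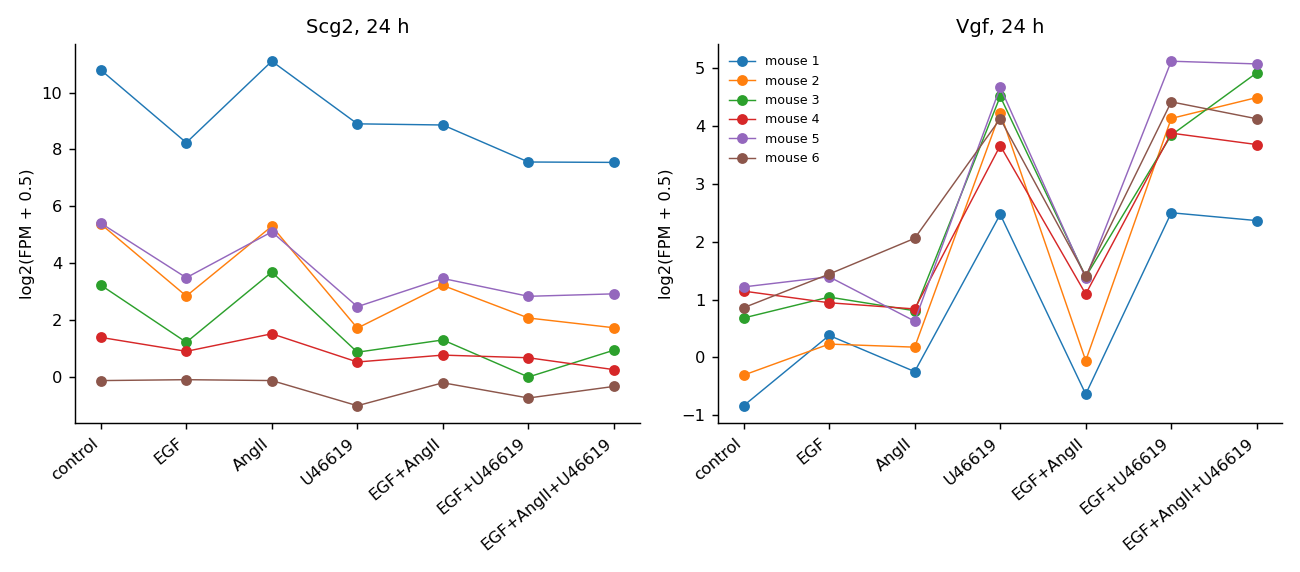
Levels of Scg2 (left) and Vgf (right) after 24 h, as log2(FPM + 0.5) on the vertical axis and the 7 groups on the horizontal axis, with 1 coloured line of points for each of 6 mice. The Scg2 lines lie far apart, from 0.422 to 1775 FPM in the controls, and run down wherever EGF or U46619 is present, whereas the Vgf lines lie closer together and step up in the 3 groups with U46619.

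After 48 h, Scg2 was lower in each of the 5 cultures with U46619 and in each of the 5 with EGF+U46619. In the EGF/U46619 batch, the controls of sets B1-1 to B1-5 had 1.83, 6.18, 37.9, 7.72 and 16.8 FPM. With U46619 the same sets had 0.341, 0.506, 3.66, 1.09 and 2.92 FPM, and with EGF+U46619 0.193, 0.355, 3.40, 0.953 and 1.08 FPM. Set B1-3 was the highest in each of these groups, and its treated levels overlap the control level of set B1-1. The mean log2 ratio to the own control was -2.42 ± 0.64 (SD, n = 5) for U46619, a 5.36-fold lower level, and -2.79 ± 0.69 for EGF+U46619, a 6.93-fold lower level. EGF alone gave -1.53 ± 0.85 in this batch, with 5 of 5 cultures lower.

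In the EGF/AngII batch the EGF values did not repeat that direction as a mean, and 1 set decides it. EGF gave 0.49 ± 2.95 (n = 5) with 3 of 5 cultures lower. The control of set B2-4 held 7 counts of Scg2 (0.232 FPM), whereas its EGF, AngII and EGF+AngII cultures held 37.2, 8.45 and 45.0 FPM. Over both batches, EGF stood at -0.52 ± 2.30 (n = 10) with set B2-4 and at -1.21 ± 0.79 (n = 9) without it, with 8 of 9 cultures lower. AngII went from 0.03 ± 2.11 (n = 5) to -0.87 ± 0.77 (n = 4), with 3 of 4 cultures lower. EGF+AngII went from 0.46 ± 3.11 (n = 5) to -0.91 ± 0.57 (n = 4), with 4 of 4 lower. Without sets B2-2 and B2-4 the values were -1.22 ± 0.85 (n = 8) for EGF, -0.60 ± 0.69 (n = 3) for AngII and -0.92 ± 0.70 (n = 3) for EGF+AngII. The 5 sets that the labels give to 1 mouse, mouse 7, had control levels of 1.83, 7.72, 1.65, 1.08 and 26.8 FPM, so sets labelled with 1 mouse also differed widely.

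Vgf was higher with U46619 after 48 h as well. Controls of sets B1-1 to B1-5 had 0.428, 1.97, 1.91, 7.68 and 4.39 FPM. With U46619 they had 4.14, 11.0, 22.5, 13.6 and 11.8 FPM, and with EGF+U46619 4.39, 9.26, 19.4, 13.0 and 15.7 FPM. Each culture exceeded its own control, but the groups overlap, because the control of set B1-4 was above the treated cultures of set B1-1. The mean log2 ratio was 1.98 ± 0.95 (SD, n = 5) for U46619 and 1.98 ± 0.86 for EGF+U46619, both 5 of 5 higher. Among all tested genes, 4.03% were DEG with U46619 against control at this time (2.48% higher, 1.55% lower) and 6.85% with EGF+U46619 (3.84% and 3.01%). EGF gave 0.25 ± 0.33 over 10 sets (8 higher), AngII 0.11 ± 0.67 over 5 (3 higher) and EGF+AngII -0.20 ± 0.41 over 5 (3 higher), and each of these 3 means is within its SD. Without set B2-4 they were 0.18 ± 0.26 (7 of 9 higher), -0.09 ± 0.57 (2 of 4 higher) and -0.28 ± 0.43 (2 of 4 higher), so the mean for AngII changed sign.

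**Figure D2:**
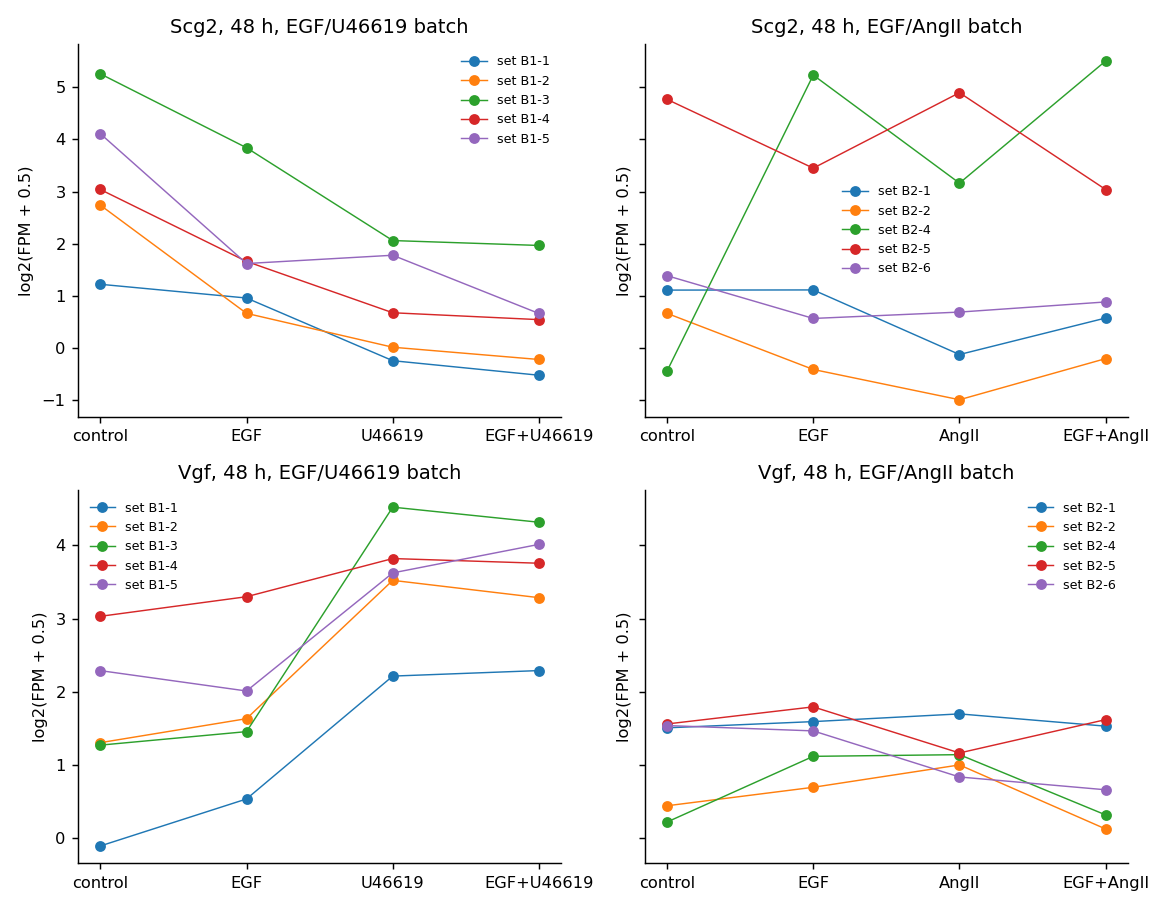
Levels of Scg2 (top) and Vgf (bottom) after 48 h as log2(FPM + 0.5), in the EGF/U46619 batch (left) and the EGF/AngII batch (right), with 1 coloured line for each culture set. On the left Scg2 falls and Vgf rises with U46619 in all 5 sets, and on the upper right set B2-4 runs from 0.232 FPM in its control to 37.2 FPM with EGF.

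**Figure D3:**
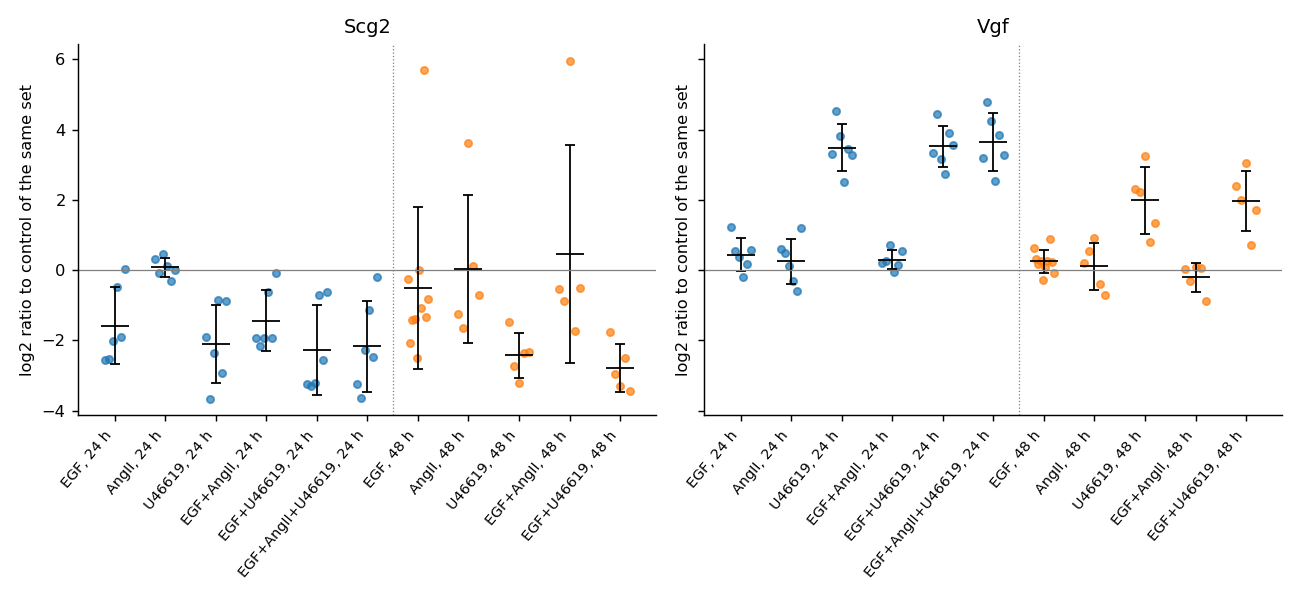
Log2 ratio of Scg2 (left) and Vgf (right) to the control of the same mouse or culture set, with 1 point per culture, the mean as a bar and the SD as whiskers, for 6 incubations after 24 h (blue) and 5 after 48 h (orange). Scg2 ratios with U46619 lie below 0 in all cultures at both times, Vgf ratios with U46619 lie above 0 in all, and the 2 highest Scg2 points at 48 h, 5.69 and 5.96, belong to set B2-4.

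In the order of mean log2 levels after 24 h, Scg2 ran from AngII and control through EGF+AngII and EGF to U46619, all 3 stimuli and EGF+U46619. Only the step from control to EGF+AngII, 1.44 ± 0.87 (SD, n = 6), exceeded its SD between neighbours, and the others did not. For Vgf the only step beyond its SD was that from U46619 to EGF, 3.04 ± 0.68 (n = 6). In the EGF/U46619 batch at 48 h, Scg2 stepped from control to EGF by 1.53 ± 0.85 and from EGF to U46619 by 0.89 ± 0.72 (n = 5 each), while U46619 and EGF+U46619 differed by 0.37 ± 0.42. Vgf stepped there from EGF+U46619 to EGF by 1.75 ± 0.86, and the other neighbours did not differ beyond their SD. The combined incubation lowered Scg2 by less than the sum of both log2 ratios. After 24 h, EGF+U46619 lay above that sum by 1.40 ± 1.00, in 6 of 6 mice, and after 48 h by 1.16 ± 0.69, in 4 of 5 sets. Since the lowest levels are at few counts, log2(FPM + 0.5) cannot follow a fall much below 0.5 FPM. For Vgf the departure from the sum was -0.41 ± 0.66 after 24 h (2 of 6 above) and -0.24 ± 0.52 after 48 h (1 of 5 above).

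Per kilobase of exon, Scg2 was the more abundant of both transcripts in 5 of 6 controls after 24 h and Vgf in 5 of 6 cultures with U46619. The mean log2 ratio of Scg2 over Vgf, from FPM per kilobase + 0.5, was 3.54 ± 3.93 (SD, n = 6) in control and -1.07 ± 3.73 with U46619. Mouse 1 was the exception, with Scg2 above Vgf in each group. After 48 h, Vgf was above Scg2 in 2 of 10 controls, in 5 of 5 cultures with U46619 (-2.02 ± 0.51) and in 5 of 5 with EGF+U46619 (-2.26 ± 0.38).

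Comparisons between incubations that do not contain the control were tested, since the choice of genes rests on values against control. The same cultures were known when the genes were chosen, so these tests are not independent of the choice. A DEG had a Benjamini-Hochberg adjusted p (FDR) under 0.05 in edgeR's quasi-likelihood test and in DESeq2, over all genes, and a group mean that reached 5 FPM. There were 9 comparisons with 2 genes each. Scg2 in EGF+U46619 against U46619 after 48 h could not meet this definition, since both group means were under 5 FPM. The same holds for Vgf in EGF+AngII against EGF at both times. Of all 18, 4 met it, all for Vgf. U46619 exceeded EGF by a log2-fold change of 3.51 ± 0.35 (SE) after 24 h (edgeR FDR = 1.04e-07, higher in 6 of 6 mice), where 11.3% of 14528 genes were DEG (6.19% higher, 5.13% lower). EGF+U46619 exceeded EGF by 3.54 ± 0.35 (edgeR FDR = 7.86e-08, 6 of 6 mice), where 13.3% were DEG (7.03% and 6.26%). After 48 h the differences were 2.04 ± 0.52 (edgeR FDR = 0.0214, 5 of 5 sets, 3.21% of genes DEG, 1.91% higher and 1.31% lower) and 2.02 ± 0.51 (edgeR FDR = 0.0167, 5 of 5 sets, 4.81% DEG, 2.62% and 2.2%). These 48 h calls were lost without set B1-3, with edgeR FDR = 0.112 and 0.0885, and the first also without set B1-2 (0.0713) or B1-5 (0.0512), the second without B1-5 (0.0632).

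EGF added to U46619 did not move Vgf detectably. The log2-fold change was 0.04 after 24 h with a 95% interval of -0.57 to 0.65 (edgeR FDR = 1), and -0.02 after 48 h with an interval of -1.21 to 1.18. Of all genes tested, 0 were DEG in this comparison at either time, with 387 genes at an unadjusted edgeR p under 0.05 after 24 h and 54 after 48 h, and DESeq2 alone gave 2 and 0. AngII added to EGF gave Vgf log2-fold changes of -0.17 (-0.89 to 0.55) after 24 h and -0.98 (-2.11 to 0.15) after 48 h, the latter lower in 5 of 5 sets (edgeR FDR = 0.968). AngII added to EGF+U46619 gave 0.17 (-0.44 to 0.78) after 24 h. A rise of the size seen with U46619 at the same time lies above each of these intervals, but smaller rises do not, and the last 48 h interval also holds a fall of that size.

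For Scg2, EGF+U46619 lay below EGF in all cultures without meeting the DEG definition. After 24 h it was lower in 6 of 6 mice, by a log2-fold change of -0.89 ± 0.34 (edgeR FDR = 0.0691, DESeq2 FDR = 0.0373). After 48 h it was lower in 5 of 5 sets, by -2.73 ± 1.17 (edgeR FDR = 0.169, DESeq2 FDR = 0.0487). The mouse term of that fit joins sets of both batches, and the EGF group then holds the 5 sets of the EGF/AngII batch as well. With the culture set as a replicate block the difference was -2.21 ± 0.75 and was called (edgeR FDR = 0.0456, DESeq2 FDR = 0.0116). Within the EGF/U46619 batch alone, with the set as a block, it was -1.81 ± 0.30 (edgeR FDR = 0.000636), and U46619 lay below EGF by -1.23 ± 0.29 (edgeR FDR = 0.0101). Both FDR values are under the threshold there, but the group means, 4.24 FPM for EGF and 1.18 FPM for EGF+U46619, are under the 5 FPM that a DEG needs. U46619 against EGF gave -0.55 (95% interval -1.23 to 0.13, edgeR FDR = 0.301) after 24 h and -2.23 (-4.51 to 0.05, edgeR FDR = 0.271) after 48 h. EGF+U46619 against U46619 gave -0.35 (-1.04 to 0.35) after 24 h and -0.49 (-2.97 to 1.99) after 48 h, both with edgeR FDR = 1. AngII added to EGF gave 0.17 (-0.50 to 0.83) after 24 h and 0.60 (-1.36 to 2.55) after 48 h, where 0 genes were DEG, with 65 and 529 at an unadjusted edgeR p under 0.05 and 0 by DESeq2 alone. AngII added to EGF+U46619 gave 0.09 (-0.63 to 0.82) after 24 h, where 0 genes were DEG, 778 had an unadjusted edgeR p under 0.05 and DESeq2 alone gave 0.

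**Figure D4:**
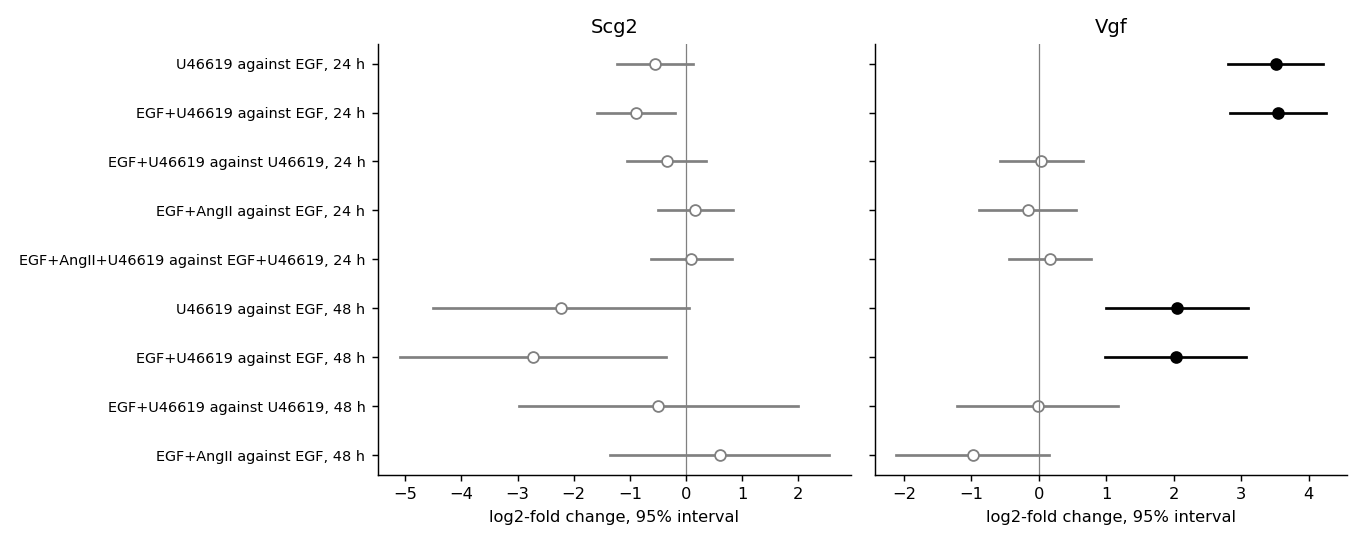
Log2-fold changes of Scg2 (left) and Vgf (right) between 2 incubations, as points with 95% intervals from edgeR, for 5 comparisons after 24 h and 4 after 48 h. Filled black points are DEG, and these are the 4 comparisons in which U46619 was added to, or set against, EGF for Vgf.

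Scg5 was at the limit of detection. It had 0 counts in 23 of 42 libraries after 24 h, with a median of 0, at most 13 counts (0.608 FPM, EGF+AngII) and more than 3 counts in 6 libraries. After 48 h it had 0 counts in 4 of 40 libraries, with a median of 3.5 and at most 18 counts (0.559 FPM, EGF). It did not pass the filter on low counts at either time, so no ratio or test is given, and a difference between groups was not detectable at this depth. The 24 h mean ranged over the groups from 0.0168 FPM with all 3 stimuli to 0.158 ± 0.228 FPM (SD, n = 6) with EGF+AngII.

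The other granins were not called in any comparison against control, but only Gnas could have been. Group means of Chga were at most 3.04 FPM, under the 5 FPM that a DEG needs. Chga (chromogranin A) had at most 7.95 FPM after 24 h, with a control mean of 3.04 FPM, and 0 counts in 16 of 42 libraries. Its log2-fold change after 24 h was -0.82 ± 0.43 (SE) with U46619 (edgeR FDR = 0.139) and -0.72 ± 0.42 with EGF+U46619 (edgeR FDR = 0.178). Gnas, whose locus also encodes the granin-like NESP55 and whose counts cannot be split between its products, was at 94.6 FPM in control and changed by -0.29 ± 0.30 with U46619 (edgeR FDR = 0.480). Chgb (chromogranin B) had at most 13 counts after 24 h and 16 after 48 h. It did not pass the filter on low counts at 24 h and so could not be called. Scg3 (chromosome 9) and Pcsk1n (chromosome X) are listed at 0 in each library, like all genes of those chromosomes. Pcsk2, the partner of Scg5, had at most 18 counts (0.844 FPM) after 24 h. After 48 h it had a median of 3 counts and at most 4.97 FPM, with a control mean of 0.755 FPM. Its log2-fold change after 48 h was -3.44 ± 1.67 (SE) with U46619 (edgeR FDR = 0.226, DESeq2 FDR = 0.0282). With EGF+U46619 it was -3.65 ± 1.69 (edgeR FDR = 0.178, DESeq2 FDR = 0.0273). Neither could be called, since the group means of Pcsk2 were under 5 FPM. The other neuroendocrine convertase gene, Pcsk1, had at most 2 counts after 24 h and 8 after 48 h.

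Of 10 tested genes that process peptide precursors, 4 fell and 1 rose with U46619 after 24 h, where 14.2% of all genes fell and 13.7% rose. With EGF+U46619, 5 fell and 1 rose, where 16.3% fell and 17.1% rose. After 48 h, 1 of 10 fell with U46619 and 2 with EGF+U46619, where 1.55% and 3.01% of all genes fell. In both, 0 of 10 rose, where 2.48% and 3.84% of all genes did. The median log2-fold change after 24 h was -0.37 with U46619 and -0.36 with EGF+U46619, against -0.06 and -0.05 over all genes. At 48 h these medians were -0.39 and -0.46, against -0.018 and -0.019 over all genes. With EGF alone after 24 h, 0 of 10 were DEG, where 0.0275% of all genes (4 genes) were. DESeq2 alone had 3 of the 10 under the threshold (Pcsk5, Cpe and Cpz), each with edgeR FDR = 0.088, and 425 of all genes, against 5 by edgeR. Cpz, a secreted carboxypeptidase, fell from 178.2 to 28.5 FPM with U46619 (log2-fold change -2.26 ± 0.36, edgeR FDR = 3.49e-05), to 17.3 FPM with EGF+U46619 (-2.66 ± 0.38), and was again lower after 48 h by -1.68 ± 0.38 and -2.15 ± 0.39. Pcsk5 (proprotein convertase PC5/6) fell after 24 h by 1.57 ± 0.37 on the log2 scale with U46619 and by 1.61 ± 0.36 with EGF+U46619, and the values that follow are also from 24 h. Qpct, a glutaminyl cyclase, fell by 1.27 ± 0.31 and by 1.30 ± 0.31, while the Golgi form Qpctl rose by 0.55 ± 0.15 and 0.49 ± 0.15. Pcsk6 (PACE4) fell with EGF+U46619, by 0.73 ± 0.29. Cpe, the carboxypeptidase that trims granin peptides, was abundant at 1672 FPM in control and fell with EGF+AngII (-0.52 ± 0.15, edgeR FDR = 0.047). Pcsk7 (chromosome 9) and Mbtps1 (chromosome 8) are listed at 0. Whether a gene listed at 0 is absent from the cells or only from the counts was not tested.

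Of 13 tested genes of dense-core vesicles and exocytosis, 2 rose and 3 fell after 24 h both with U46619 and with EGF+U46619, which is 5 of 13 where 27.8% and 33.4% of all genes were DEG. The medians were -0.07 and -0.12. Ptprn (IA-2), a membrane protein of dense-core vesicles, rose from 21.0 to 44.0 FPM with U46619 (1.496 ± 0.373, edgeR FDR = 0.00249) and to 59.8 FPM with EGF+U46619 (2.05 ± 0.38). It was also higher after 48 h, by 1.00 ± 0.30 and 1.21 ± 0.29. Rab27b, a GTPase of vesicle docking, rose by 0.90 ± 0.23 and 0.56 ± 0.23 after 24 h. Rab3a, a vesicle GTPase, fell by 1.14 ± 0.25 and by 1.23 ± 0.25, Vamp2 (synaptobrevin, a vesicle SNARE) fell by 0.60 ± 0.17 and by 0.81 ± 0.17, and Syt11 fell by 0.71 ± 0.20 and by 0.77 ± 0.20. Rab3d, Rab27a and Sytl4 are listed at 0.

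Of 12 tested prohormone, neuropeptide and neurotrophin genes, 3 rose and 1 fell in both incubations after 24 h, that is 4 of 12 where 27.8% and 33.4% of all genes were DEG. After 48 h, 0 of 12 were called with U46619 and 1, Adm, which fell, with EGF+U46619. Of all genes, 4.03% and 6.85% were DEG there (1.55% and 3.01% lower). The values of single genes that follow are from 24 h. Nppb (brain natriuretic peptide) rose from 0.224 to 7.77 FPM with U46619 (4.33 ± 0.88, edgeR FDR = 0.000393). Bdnf, a neurotrophin, rose from 25.3 to 48.9 FPM (1.09 ± 0.25). Adm (adrenomedullin, a vasodilator peptide) fell from 154.01 to 60.9 FPM (-1.29 ± 0.37). Pthlh was at 0.728 FPM in control and gave -1.45 ± 0.60 with U46619 (edgeR FDR = 0.0658), and Cck is listed at 0. The list's median after 24 h was -0.74 with U46619 and -0.15 with EGF+U46619, and after 48 h it was -0.79 and -0.71.

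The list called CREB and AP-1 regulators held 24 tested genes, mostly CREB, ATF, FOS and JUN factors and CREB coactivators. Outside these families it also held Egr1, Nr4a1, Nr4a2, Nr4a3, Rest and Rcor1. Of the 24, 6 rose and 2 fell with U46619 after 24 h, and 7 rose and 1 fell with EGF+U46619. That is 8 of 24 in each, where 27.8% and 33.4% of all genes were called, and the medians were 0.24 and 0.22. Fosl1 (FRA-1) rose from 2.59 to 15.0 FPM with U46619 (2.65 ± 0.55, edgeR FDR = 0.000476) and to 21.9 FPM with EGF+U46619 (3.21 ± 0.56), and was again higher after 48 h by 1.79 ± 0.36 and 1.91 ± 0.36. Nr4a2 (NURR1) rose by 0.75 ± 0.17 and 1.12 ± 0.17 after 24 h, Junb by 0.99 ± 0.24 and 0.97 ± 0.24, Jun by 0.76 ± 0.26 and 0.91 ± 0.26, and Atf3 by 1.04 ± 0.29 and 0.76 ± 0.29. With AngII, 0 genes of any of these lists were called at either time, nor were any of all 14528, with 68 genes after 24 h and 229 after 48 h at an unadjusted edgeR p under 0.05 and 0 by DESeq2 alone.

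**Figure D5:**
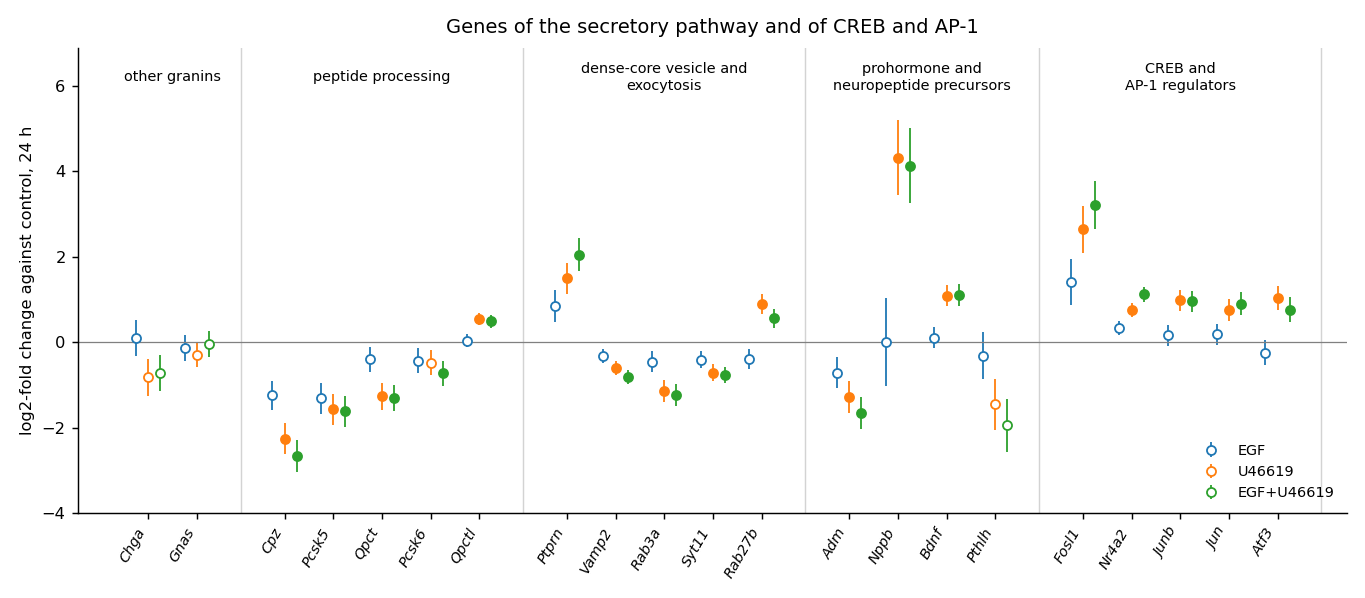
Log2-fold change against control after 24 h, with the SE from edgeR as whiskers, for named genes of the lists, with EGF (blue), U46619 (orange) and EGF+U46619 (green). Filled points are DEG. No blue point is filled, and the genes that are filled in orange have the same sign in green.

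Summed markers of smooth muscle and of other cells also differed from control, and their part in the lower Scg2 and higher Vgf levels was not tested. After 24 h, the summed smooth muscle markers (6 of 8 with counts) had a median of 2628 FPM in control (range 1256 to 5380) and 11976 FPM with U46619 (4426 to 15184). Acta2 makes up most of this sum, with a median of 3341 FPM over all 24 h libraries, where Smtn, Lmod1 and Myh11 had 120, 92.2 and 29.5 FPM. The summed Schwann cell markers (5 of 6 with counts) had a median of 9.73 FPM in control (5.39 to 32.6) and 1.61 FPM with U46619 (0.580 to 4.15), groups that do not overlap. Sox10 among them was at no more than 0.934 FPM in any 24 h library. The summed fibroblast markers went from 422 FPM (180 to 616) to 146 FPM (124 to 293), the summed macrophage markers from 74.5 FPM (20.9 to 114) to 36.4 FPM (23.3 to 76.6), and the summed endothelial markers from 190 FPM (4.85 to 1760) to 153.7 FPM (2.64 to 1605). The neuron and chromaffin markers had medians of 5.07 FPM (1.64 to 16.9) and 3.08 FPM (0.330 to 11.4). With EGF after 24 h, the Schwann sum was lower in 6 of 6 mice (median 6.86 FPM), the macrophage and endothelial sums also in 6 of 6, the neuron and chromaffin sum in 5 of 6 and the smooth muscle sum in 4 of 6, while the fibroblast sum was higher in 5 of 6. With U46619 after 48 h, the smooth muscle sum was higher in 2 of 5 sets, with a median of 3558 FPM against 3865 FPM in the controls of those sets. The Schwann sum was lower in 5 of 5 (median 9.26 against 30.5 FPM), as were the neuron and chromaffin, fibroblast and endothelial sums, and the macrophage sum was lower in 4 of 5.

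Genes whose pattern over the 11 incubations was most like that of a member were found by the root-mean-square (RMS) difference of their mean log2 ratios, among 10956 genes. This is a description without a test. Nearest to Scg2 were Aoc3 (0.39), a vascular amine oxidase, Fmod (0.40), the matrix proteoglycan fibromodulin, Gas6 (0.40), a ligand of TAM receptors, Id4 (0.43), an inhibitor of basic helix-loop-helix factors, and Matn4 (0.43), a matrilin. The median RMS difference to Scg2 was 1.74. These patterns include set B2-4 at 48 h. Without it, Fmod (0.39) and Aoc3 (0.46) stayed among the 5 nearest, and Fxyd1 (0.43), Apod (0.49) and Kcne4 (0.51) took the place of the other 3. Aoc3, Fmod, Gas6, Id4 and Matn4 had ratios with EGF+U46619 after 24 h of -2.38, -2.29, -2.80, -2.16 and -2.84. Among the nearest to Vgf were Crct1 (0.13), Ptgs2 (0.34), the inducible cyclooxygenase COX-2, Plaur (0.38), the urokinase receptor, and Npnt (0.41), the matrix protein nephronectin, with a median over all genes of 2.05. The 5 nearest to Vgf were the same without set B2-4. The ratios of the genes named with U46619 after 24 h were 3.36, 3.03, 2.90 and 3.13, and after 48 h they were 2.04, 1.70, 1.59 and 1.24.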

How the data were processed

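The authors aligned paired-end reads of poly(A) RNA to mm10 with HISAT2 2.1.0 and counted them on exons of Ensembl genes with featureCounts, reads that align to several places included. The strand setting is not given in the sources used here. The deposited values are raw counts per gene and library. From them, FPM were computed with edgeR's TMM library sizes, separately for 24 and 48 h. Genes were filtered with filterByExpr (14653 genes kept at 24 h, 15796 at 48 h, 14528 at both) and fitted per time point with edgeR 4.0.16 (glmQLFit) and DESeq2 1.42.0 in R 4.3.3, with mouse and treatment as terms and all groups in 1 fit. FDR values are Benjamini-Hochberg adjusted p-values over all genes. SE are those implied by edgeR's statistic. The members, lists and tests were chosen with earlier results of these data known.

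Named genes are the members, the 5 nearest genes per member, each granin, and per list up to 5 genes called most often plus those at 0. Pcsk1, Pcsk2, Cpe, Fxyd1, Apod and Kcne4 were named beyond that rule, after their values were seen. Pairing was checked from correlations of deviations from group means: 126 of 126 pairs within a mouse exceeded 0.1 at 24 h (lowest 0.39), and 57 of 60 within a culture set at 48 h (lowest -0.32, the exceptions involving control B2-4). Cultures with 1 replicate number come from the same mouse per the labels. On simulated counts for EGF+U46619 against EGF, 67 of 67 genes changed 4-fold and 59 of 67 changed 2-fold were recovered at 24 h among 14459 genes, and 63 of 67 and 61 of 67 at 48 h among 15601. The changed genes were drawn from those with a mean of at least 5 FPM, and no other treatment effect was simulated. Recovery of genes at lower levels was not assessed. Alternatives were other pseudocounts, scalings, filters and blocks, each tool alone, fits of the compared groups only, values without sets B2-4 or B2-2 (chosen after seeing the data), and leave-one-out fits over mice or sets. Results for some genes that this rule names are not reported here.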

Additional observations from a re-analysis of the deposited data

Results flagged for a closer look

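Of 48 groups of values of Scg2 and Vgf that were searched for a sample far from the others, 4 held one, and chance gives about 1 in 20. The ratio of Scg2 to its own control with EGF after 48 h was 5.69 in set B2-4, where the next highest of 10 sets was at 0.00. With EGF+AngII after 48 h it was 5.96 in the same set, where the next of 5 was at -0.50. Both ratios rest on the library labelled control of set B2-4, which did not correlate with its own set. The level of Scg2 with U46619 after 24 h was 8.90 on the log2(FPM + 0.5) scale in mouse 1, where the next of 6 mice was at 2.48. The level of Vgf with EGF after 48 h was 3.30 on that scale in set B1-4, where the next of 10 sets was at 2.01, and that set also had the highest Vgf among the controls, 7.68 FPM.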

How the results depend on the processing

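Of 288 alternative values for the direct comparisons, 266 kept direction and side of the threshold. Of 246 alternative ratios to control, 236 moved by less than the SD between cultures, and 8 changed sign, each for EGF, AngII or EGF+AngII after 48 h. With a pseudocount of 2, Scg2 ratios after 48 h were -1.76 (U46619) and -1.96 (EGF+U46619), and Vgf ratios after 24 h were 2.52 (U46619), 2.56 (EGF+U46619) and 2.68 (all 3). With a pseudocount of 0.1, the Vgf ratio for EGF+U46619 after 24 h was 4.17. The edgeR fit with mouse as replicate block gave -3.18 and -3.68 for Scg2 with U46619 and EGF+U46619 after 48 h, 4.12 for Vgf with EGF+U46619 after 24 h and -0.77 for Vgf with EGF+AngII after 48 h.

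For Scg2, EGF+U46619 against EGF was called after 24 h with only the groups compared in the fit (-0.87) or DESeq2 alone (-0.95), and after 48 h with the culture set as replicate block (-2.21) or DESeq2 alone (-2.74). For Vgf after 48 h, the calls were lost with only the groups compared, at 2.00 for U46619 against EGF and 2.02 for EGF+U46619 against EGF. Without a replicate block, Scg2 reversed to 0.60 for U46619 against EGF and to -0.0093 for all 3 stimuli against EGF+U46619 after 24 h. The cause of these changes was not tested. Leaving out 1 mouse or set gave 1.78 to 2.31 for Vgf with U46619 against EGF after 48 h and 1.80 to 2.28 with EGF+U46619 against EGF. Differences near 0 changed sign in this way after 24 h: EGF+U46619 against U46619 ran from -0.55 to 0.11 for Scg2 and from -0.064 to 0.16 for Vgf, EGF+AngII against EGF from -0.31 to 0.076 for Vgf, and all 3 against EGF+U46619 from -0.092 to 0.24 for Scg2 and from -0.012 to 0.24 for Vgf. After 48 h, EGF+U46619 against U46619 ran from -0.15 to 0.057 for Vgf.

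Without a replicate block, DEG with EGF+U46619 against control after 24 h numbered 1 of the peptide processing list, 2 of the vesicle list, 2 of the prohormone list and 3 of the CREB and AP-1 list. Over all genes, that fit gave 1037 DEG with U46619, 1826 with EGF+U46619, 2145 with all 3 and 0 with EGF or EGF+AngII against control after 24 h, 24 and 105 for U46619 and EGF+U46619 against EGF, and after 48 h 109 with U46619 and 1.3% of genes with EGF+U46619 against control, and 64 and 100 against EGF. In the same order after 48 h, the culture set as block gave 1546, 2170, 1496 and 1905, the EGF/U46619 batch alone, chosen after seeing the data, 3111, 3774, 1626 and 2019, and no filter on low counts 313, 619, 237 and 401. That batch alone also gave 8 DEG with EGF against control and 1 for EGF+U46619 against U46619. With only the groups compared, 7 and 1 genes were DEG against EGF after 48 h. DESeq2 alone gave 397 DEG with EGF and 1265 with EGF+AngII after 24 h, and after 48 h 965 with U46619 against control, 785 with U46619 against EGF and 1098 with EGF+U46619 against EGF. No filter gave 142 with EGF after 24 h. Counts under 10, as for Scg2 in mouse 6 and for Scg5, limit what these libraries can show.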
